A study of Mus musculus with 56 samples.

Results

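Whole front paws of male DBA/1 mice with collagen-induced arthritis (CIA) were compared between 13 mice that had received an antibody against tumour necrosis factor (anti-TNF, clone XT3.11 at 30 mg/kg) and 13 mice that had received an antibody against interleukin-6 (anti-IL-6, clone MP5-20F3 at 10 mg/kg). These 26 libraries were chosen by their treatment label from 56 in the series. The remaining libraries came from 13 mice given both antibodies (the combination), 13 given an IgG1 isotype control at 30 mg/kg, and 4 without CIA whose treatment is given as none. Apart from the mice without CIA, every mouse had been immunised with chicken type II collagen on days 1 and 21, and was injected intraperitoneally 2 times a week for 5 weeks from day 21. RNA was taken on day 91, after dosing had ended, so the groups differ by a past treatment. Dose and clone differ together with the target of the antibody, and their parts cannot be told apart. Genes were tested where mean FPKM (fragments per kilobase of transcript, scaled to mapped depth in mega-fragments, M) was at least 1 in either group, which left 14490 of 53431 features.

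TNF and IL-6 are cytokines of the inflamed joint. TNF acts through the receptors Tnfrsf1a and Tnfrsf1b, which lead to NF-kB and AP-1, transcription factor families that switch on chemokines, adhesion molecules and matrix-degrading enzymes. IL-6 binds Il6ra and signals through Il6st (gp130) and JAK kinases to STAT3, whose targets include its own inhibitor Socs3 and acute-phase proteins. Antibodies against TNF or the IL-6 receptor are used in human rheumatoid arthritis. Among the genes with the smallest p-values here were members of the circadian clock. In this feedback loop Arntl with Clock or Npas2 drives E-box genes such as Dbp, Tef, the Per genes and Nr1d1, while Nr1d1 and Nr1d2 repress Arntl, and Dbp, Tef and Hlf activate at D-boxes that Nfil3 represses.

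The promoters of Tef and Per3 are shown because they hold the clock motifs found among the genes searched. Each is the 250 bases before an annotated start in RefSeq on GRCm38.p6, written 5′ to 3′ on the strand of the gene. Capitals mark the E-box CACGTG in the windows of both starts of Tef, and the D-box TTATGTAA, present at 2 places, in Per3.
Tef, chr15:81802423-81802672, + strand: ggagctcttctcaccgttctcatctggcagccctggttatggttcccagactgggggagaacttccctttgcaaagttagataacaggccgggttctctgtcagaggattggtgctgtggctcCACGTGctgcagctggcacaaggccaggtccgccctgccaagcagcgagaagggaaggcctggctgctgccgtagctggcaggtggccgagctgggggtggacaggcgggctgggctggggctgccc
Tef, chr15:81811164-81811413, + strand: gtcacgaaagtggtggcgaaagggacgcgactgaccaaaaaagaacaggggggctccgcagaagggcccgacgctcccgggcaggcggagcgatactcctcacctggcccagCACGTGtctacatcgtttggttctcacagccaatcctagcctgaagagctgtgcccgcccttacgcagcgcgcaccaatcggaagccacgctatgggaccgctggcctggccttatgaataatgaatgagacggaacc
Per3, chr4:151044666-151044915, - strand: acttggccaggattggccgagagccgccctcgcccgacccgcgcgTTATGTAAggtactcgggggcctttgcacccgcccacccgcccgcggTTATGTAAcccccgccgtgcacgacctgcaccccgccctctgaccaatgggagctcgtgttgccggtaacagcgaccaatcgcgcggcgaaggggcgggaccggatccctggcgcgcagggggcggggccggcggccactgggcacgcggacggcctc
The E-boxes of Tef lay 127 and 138 bases before the respective start, and the D-boxes of Per3 lay 205 and 158 bases before its start. On either strand, CACGTG was present in 6.02% and a D-box (TTATGTAA or TTACGTAA) in 0.931% of the 32851 windows of this length in the table. The windows of Dbp, Nr1d2, Nr1d1, Nfil3 and Npas2 held neither motif, and none of these genes' windows held the AP-1 motif TGACTCA, which 4.46% of windows hold. The other clock genes described below were not searched, and no window was available for Fosl1. A match of letters is a description and does not show that a factor binds.

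No gene differed between anti-TNF and anti-IL-6 paws at an adjusted p under 0.05 (limma on log2(FPKM + 1), Benjamini-Hochberg over the 14490 genes, 0% called). The smallest adjusted p was 0.35. At an unadjusted p under 0.05 there were 684 genes (4.72%), of which 190 (1.31%) had a positive difference, that is a higher level in anti-TNF paws, and 494 (3.41%) a negative difference. Where no gene differs, a share of 0.05 passes this level on average, so 684 genes are not an excess. A fit of the 26 libraries alone gave 499 such genes. Of all genes tested, 8568 (59.1%) lay below 0, so a negative sign was the commoner one. The 13 libraries of one group and the 13 of the other overlapped for every gene tested. The median 95% interval reached 0.17 to either side of the log2 difference, and the interval of 13966 genes (96.4%) lay wholly within 1 log2 unit of 0. It lay within 0.5 log2 units for 12418 genes (85.7%). A p above the threshold does not show that the groups act alike, and the intervals are the measure of what differences remain possible. Of the variance over all genes tested, 2.62% lay between the 2 groups.

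**Figure D1:**
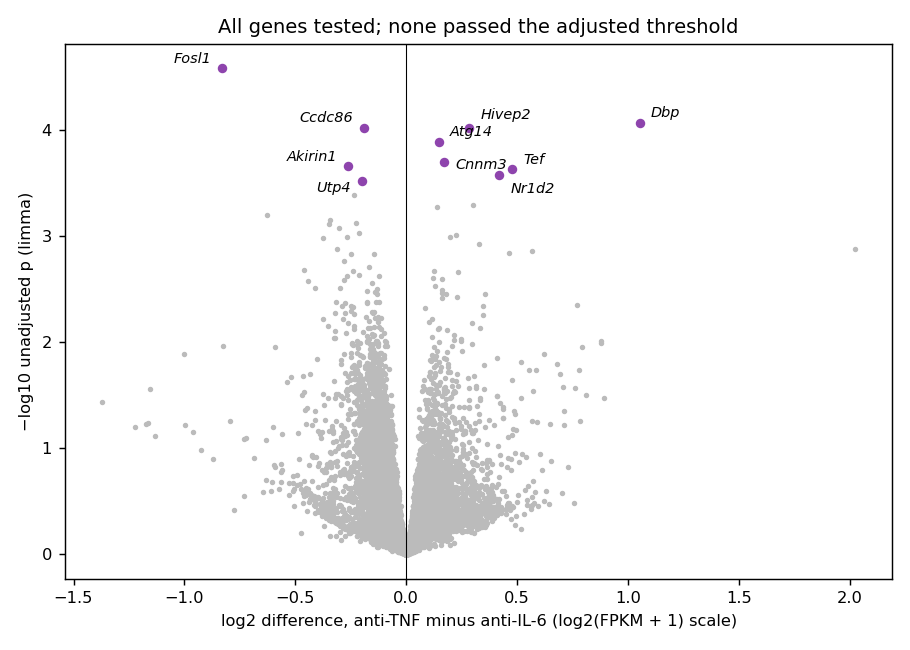
Log2 difference (anti-TNF minus anti-IL-6, on the log2(FPKM + 1) scale) against −log10 of the unadjusted p for the 14490 genes tested. Each point is a gene, and the 10 genes with the smallest p are named. No gene passed the adjusted threshold, and more genes with a small p lie left of 0 (494) than right of it (190).

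The first principal component of the 26 libraries held 42.6% of the variance, and 1.02% of it lay between the groups. Its loadings ran from Saa3, Cxcl5, Mmp3, Mmp13, Timp1 and Il1b, genes of inflammation and matrix breakdown, to Ckmt2, Myl2 and other muscle genes. Estimated depth was 41.5 to 54.6 M fragments in anti-TNF libraries and 39.8 to 53.5 M in anti-IL-6 libraries. As labelled, the tissue held muscle (20 of 21 listed genes above the filter), epidermis (16 of 16), cartilage (15 of 16) and synovial fibroblast genes (18 of 18). Mouse numbers ran in blocks, with anti-TNF mice numbered 15 to 27 and anti-IL-6 mice 1 to 14, except that anti-TNF replicate 6 is mouse 2 and anti-IL-6 replicate 2 is mouse 20. Without these 2 libraries 0 genes were called as well, with 704 at an unadjusted p under 0.05.

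None of the 6 genes for the antibody targets and their receptors had an unadjusted p under 0.05. Tnf averaged 2.19 ± 1.45 FPKM in anti-TNF paws and 2.08 ± 0.94 in anti-IL-6 paws (SD, n = 13 each), a log2 difference of 0.0016 ± 0.17 (SE, 95% interval -0.34 to 0.35). Il6 ran from 0.0664 through a median of 0.611 to 7.42 FPKM in anti-TNF paws, against 0.142, 1.98 and 15.8 in anti-IL-6 paws. The ranges overlapped, 3 anti-IL-6 paws lay above the highest anti-TNF paw, and 10 of 13 anti-TNF paws lay below the anti-IL-6 median. Its log2 difference was -0.73 ± 0.41 (95% interval -1.56 to 0.10, limma p = 0.082, adjusted p = 0.97), so for Il6 a difference of more than 1 log2 unit lies within the interval. The receptors had narrower intervals. Tnfrsf1a differed by -0.11 ± 0.11, Tnfrsf1b by -0.01 ± 0.29, Il6ra by 0.01 ± 0.09 and Il6st by -0.02 ± 0.13 on the log2 scale, each with an adjusted p of 0.97 or above. An antibody binds the protein, so these transcript levels do not check the treatment labels.

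Fosl1, which encodes the AP-1 subunit Fra-1, had the smallest p. Its level was 0.811 at the lowest, 2.07 at the median and 4.15 FPKM at the highest in anti-TNF paws, against 2.31, 3.73 and 9.43 FPKM in anti-IL-6 paws. In 9 of 13 anti-TNF paws it lay below the lowest anti-IL-6 paw, and 6 anti-IL-6 paws lay above the highest anti-TNF paw. The log2 difference was -0.83 ± 0.18 (95% interval -1.19 to -0.47, unadjusted p = 2.65e-05, limma adjusted p = 0.35). Against the isotype paws, at 2.14 ± 1.24 FPKM, Fosl1 differed by 0.03 ± 0.18 in anti-TNF paws and by 0.85 ± 0.18 in anti-IL-6 paws, which passed the test (limma adjusted p = 0.0094). In that fit 0% of genes were called between anti-TNF and isotype and 0.959% (139 genes) between anti-IL-6 and isotype. The isotype libraries are shared by both of these contrasts.

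Dbp, a PAR bZIP transcription factor whose RNA follows the clock with a large amplitude, came next. It ran from 18.3 through a median of 35.4 to 63.3 FPKM in anti-TNF paws, against 5.77, 14.5 and 42.8 FPKM in anti-IL-6 paws. All 13 anti-TNF paws lay above the anti-IL-6 median, and 8 anti-IL-6 paws lay below the lowest anti-TNF paw. The log2 difference was 1.05 ± 0.25 (95% interval 0.56 to 1.55, unadjusted p = 8.63e-05, limma adjusted p = 0.35). Isotype paws held 64.4 ± 22.1 FPKM, above the mean of either antibody group, and Dbp differed from them by -0.85 ± 0.25 in anti-TNF paws and by -1.90 ± 0.25 in anti-IL-6 paws (limma adjusted p = 5.58e-06 for anti-IL-6). Mean levels were 60.5 FPKM in the combination and 102.5 FPKM in mice without CIA. The highest anti-IL-6 value, 42.8 FPKM, came from mouse 20, whose number falls among the anti-TNF mice, while mouse 2 of the anti-TNF group had 37.2 FPKM. Dbp lies on chromosome 7 (45705088 to 45710203, GRCm38) and its end overlaps Sphk2 on the other strand. The sources do not state whether counting used strand, so reads of the overlap could belong to either gene.

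**Figure D2:**
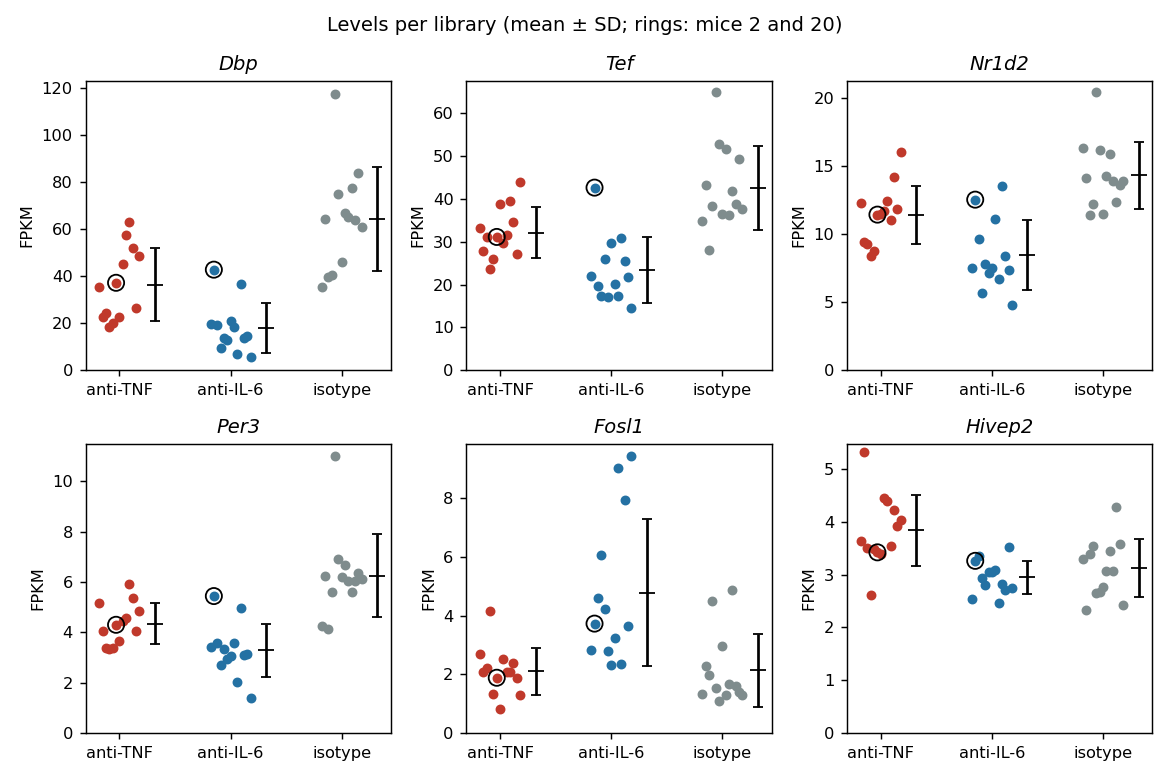
FPKM per library (points) with mean ± SD (bars) for 6 genes in anti-TNF, anti-IL-6 and isotype paws (n = 13 each). Rings mark mouse 2 (anti-TNF) and mouse 20 (anti-IL-6). Dbp, Tef, Nr1d2 and Per3 sit lower in most anti-IL-6 paws than in anti-TNF paws and highest in isotype paws, while 6 anti-IL-6 paws lie above the highest anti-TNF paw for Fosl1.

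Tef, a close relative of Dbp that binds the same D-box, showed the same order of groups. It ran from 23.6 through 31.1 to 44.0 FPKM in anti-TNF paws, against 14.5, 21.7 and 42.7 FPKM in anti-IL-6 paws, with all 13 anti-TNF paws above the anti-IL-6 median. Its log2 difference was 0.48 ± 0.12 (unadjusted p = 0.00023, limma adjusted p = 0.43). Nr1d2 (Rev-erb beta), a repressor of Arntl, averaged 11.4 ± 2.16 FPKM in anti-TNF paws and 8.44 ± 2.58 in anti-IL-6 paws (log2 difference 0.42 ± 0.11, adjusted p = 0.43, limma). Nr1d1 (Rev-erb alpha) averaged 80.9 ± 18.2 against 57.4 ± 23.0 FPKM (0.57 ± 0.17), and its end overlaps Thra on the other strand. Per3, a clock repressor of the Period family, averaged 4.34 ± 0.82 against 3.28 ± 1.06 FPKM (0.35 ± 0.12), and Bhlhe41, a repressor at E-boxes, 5.46 ± 1.32 against 4.10 ± 1.10 FPKM (0.35 ± 0.12).

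Of the 10 clock genes driven by the activators, 6 had an unadjusted p under 0.05 with a positive difference, beside 1.31% of all genes, and none passed the adjusted test. They were Dbp, Tef, Nr1d2, Nr1d1, Per3 and Bhlhe41. Per1, which also answers acutely to glucocorticoids, had a negative one (10.3 ± 3.07 against 13.1 ± 4.13 FPKM, log2 -0.32 ± 0.14, unadjusted p = 0.031), which was -0.10 ± 0.18 with index run as a covariate. Hlf, Ciart and Per2 differed by 0.12 ± 0.12, 0.18 ± 0.19 and -0.10 ± 0.13. The median log2 difference of the 10 was 0.35, against -0.02 for all genes tested. Of the 5 clock genes in antiphase, Nfil3, Npas2 and Cry1 had a negative difference at an unadjusted p under 0.05, beside 3.41% of all genes. Nfil3, the repressor at D-boxes, ran from 6.94 through 10.1 to 15.4 FPKM in anti-TNF paws, against 8.98, 12.7 and 26.0 FPKM in anti-IL-6 paws (log2 -0.44 ± 0.14). Npas2, a partner of Arntl, averaged 3.47 ± 0.80 against 4.68 ± 0.88 FPKM (-0.35 ± 0.13), with all 13 anti-TNF paws below the anti-IL-6 median. Cry1 differed by -0.23 ± 0.08, Arntl by -0.15 ± 0.11 and Clock by -0.11 ± 0.09. With index run as a covariate, Dbp, Tef, Nr1d2, Nr1d1, Per3 and Bhlhe41 kept a positive difference at an unadjusted p under 0.05. In that fit Dbp was at 1.30 ± 0.30, Nr1d2 at 0.35 ± 0.12 and Hlf at 0.01 ± 0.14. Both clock lists were drawn up with these genes' results known, so their counts are not independent evidence of a direction.

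The clock genes were also set side by side against the shared isotype paws. Tef differed from isotype by -0.38 ± 0.12 in anti-TNF paws and by -0.86 ± 0.12 in anti-IL-6 paws. Per3 differed by -0.43 ± 0.12 and by -0.77 ± 0.12 in the same order, and Npas2 by 0.32 ± 0.13 and 0.67 ± 0.13. Per1 was the other way round, at -0.36 ± 0.14 in anti-TNF paws and -0.04 ± 0.14 in anti-IL-6 paws, and Per2 lay near 0 in both.

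**Figure D3:**
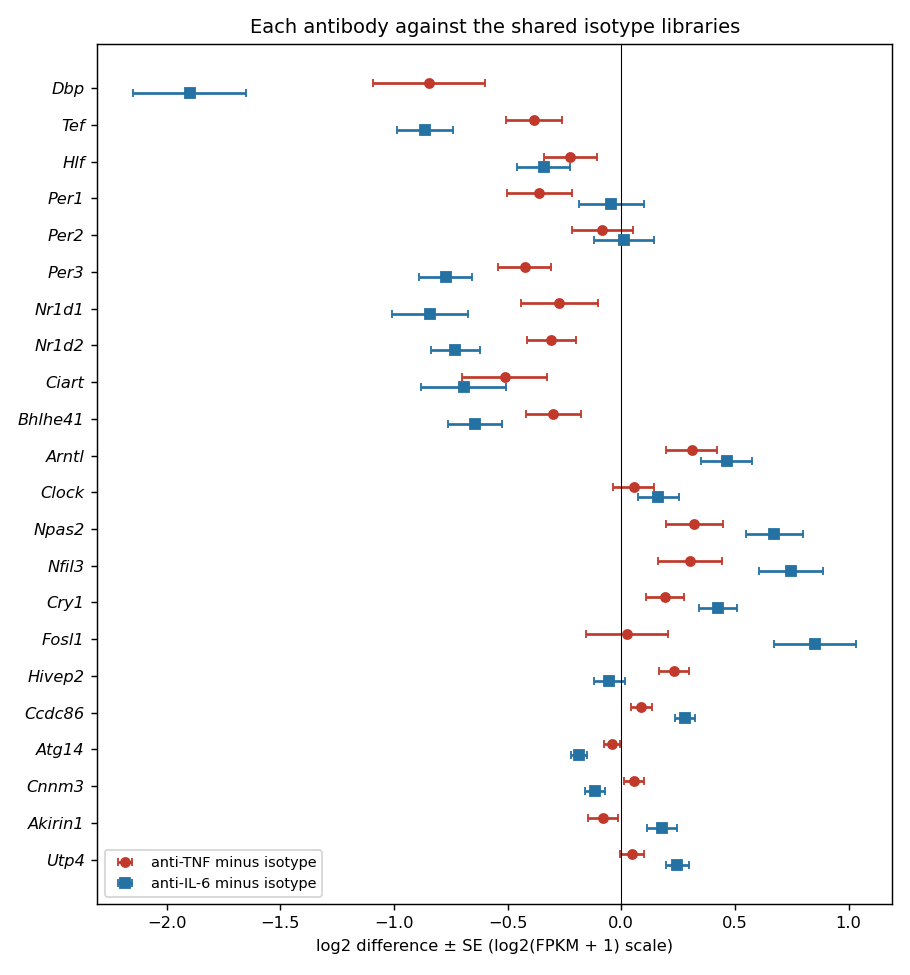
Log2 difference ± SE of each antibody group from the shared isotype libraries, for the 15 clock genes and the other genes among the 10 with the smallest p (circles, anti-TNF; squares, anti-IL-6). Dbp lies at -0.85 in anti-TNF paws and -1.90 in anti-IL-6 paws. Because the isotype libraries enter both values, the pairs are not independent.

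A clock score, the mean log2 level of the 10 driven genes minus that of the 5 in antiphase, was 0.61 ± 0.36 in anti-TNF paws, 0.04 ± 0.45 in anti-IL-6 paws and 1.22 ± 0.44 in isotype paws (SD, n = 13 each). In the combination paws, which also received anti-IL-6, the score was 1.11 ± 0.46. It spanned 0.09 to 1.13 in anti-TNF paws and -0.67 to 0.94 in anti-IL-6 paws, so the groups overlapped, and mouse 20 held the highest anti-IL-6 score. The score uses the 2 clock lists drawn up with these genes' results known, so its difference between groups is not independent evidence. The labels give no time of day for the sampling. Mouse number was set against Dbp within each group. Over the 13 anti-TNF mice Pearson's r was 0.29 (permutation p = 0.35, adjusted 0.54) and Spearman's rho 0.51 (permutation p = 0.081, adjusted 0.16), and without mice 2 and 15 r was 0.70. Over the 13 anti-IL-6 mice r was 0.19 (permutation p = 0.54, adjusted 0.54) and rho -0.01 (permutation p = 0.98, adjusted 0.98), and r was -0.22 without mice 20 and 1. The mice left out were the 2 whose numbers lay farthest from the group median. In the anti-TNF group mice 15 and 27 lay equally far, and mouse 15 was taken as the first in order. The value without mouse 27 in its place was not computed, so the 0.70 rests on that choice. Mouse number and Dbp in the 2 groups were the 2 relations computed, each with 100000 resamples. Within groups, over the 26 libraries, the 5 genes most like Dbp by Pearson correlation were Per3 (0.93), Nr1d2 (0.83), Nfil3 (-0.82), Tef (0.78) and Lncppara (0.76). All share the depth and tissue make-up of each library.

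The titles' index numbers fall into 5 stretches within which mouse numbers ascend, here called index runs. Run 3 has 1 exception, mouse 52 of the isotype group, which stands before mouse 42. The anti-TNF and anti-IL-6 groups share only run 2 (2 anti-TNF and 4 anti-IL-6 libraries) and run 5 (6 and 1). Anti-IL-6 and isotype libraries were uneven as well, with 8 and 1 in run 4, 1 and 5 in run 5 and 0 and 4 in run 3. Run and treatment are thus partly confounded in the contrast of anti-IL-6 with isotype too. Dbp differed by 0.90 within run 2 and by 1.05 within run 5, and Fosl1 by -0.78 and -0.49. Tef differed by 0.22 and 0.72, and Nr1d2 by 0.16 and 0.13, less than its pooled 0.42. Nr1d1 was at -0.04 within run 2 and 0.48 within run 5. Il6 differed by 0.84 within run 2 and by -1.40 within run 5, so its sign was not the same in the 2 runs. Of the 10 driven clock genes, 8 had a positive pooled difference, while 5 had one within run 2 and 9 within run 5. These values within runs rest on so few libraries that no test was made of them.

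The remaining genes among the 10 with the smallest p were small differences in evenly expressed genes. Hivep2, a zinc finger protein that binds kB-like sites, averaged 3.85 ± 0.67 FPKM in anti-TNF paws and 2.95 ± 0.31 in anti-IL-6 paws (log2 0.28 ± 0.07, limma adjusted p = 0.35). It differed from isotype by 0.23 ± 0.07 in anti-TNF paws and by -0.05 ± 0.07 in anti-IL-6 paws. Atg14, a subunit of the autophagy PI3-kinase complex, averaged 4.71 ± 0.29 against 4.16 ± 0.34 FPKM (0.15 ± 0.04). Cnnm3, a membrane protein linked to magnesium transport, averaged 6.97 ± 0.59 against 6.08 ± 0.59 FPKM (0.17 ± 0.04). Ccdc86, a nucleolar protein, averaged 6.65 ± 0.64 in anti-TNF paws and 7.75 ± 0.84 in anti-IL-6 paws (-0.19 ± 0.05), and Utp4, part of the machinery that processes small-subunit ribosomal RNA, 14.7 ± 1.55 against 17.0 ± 1.503 FPKM (-0.20 ± 0.05). Akirin1, a nuclear protein related to a cofactor of NF-kB, averaged 13.9 ± 1.69 against 16.9 ± 2.16 FPKM (-0.26 ± 0.07). Each of these had a limma adjusted p of 0.35 to 0.45.

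Immediate early genes, many of them transcription factors, are switched on by cells within minutes of a stimulus, and had negative differences throughout their list. All 21 tested lay below 0 (beside 59.1% of all genes), with a median of -0.26, and 7 had an unadjusted p under 0.05 (beside 3.41% of all genes), though 0 passed the adjusted test. Apart from Fosl1 these were Myc, Atf3, Fosb, Fosl2, Jun and Ier5. Fosb ran from 0.637 through 1.51 to 10.3 FPKM in anti-TNF paws, against 0.952, 4.62 and 24.6 in anti-IL-6 paws (log2 -0.9998 ± 0.39). Atf3, a stress-induced member of the ATF family, averaged 7.52 ± 2.45 against 13.3 ± 8.22 FPKM (-0.59 ± 0.22), and the groups overlapped widely. Jun averaged 32.9 ± 4.73 against 40.1 ± 11.7 FPKM and Myc 29.8 ± 6.28 against 36.1 ± 5.75 FPKM. Within the index runs that both groups share, Jun differed by 0.03 in run 2 and by 0.03 in run 5, without the negative sign of its pooled -0.24. Myc differed by -0.28 and -0.44 there, Atf3 by -0.20 and 0.05, and Fosb by -0.77 and 0.17. Of the 21 genes, 15 lay below 0 within run 2 and 16 within run 5. With index run as a covariate 2 members had an unadjusted p under 0.05 in place of 7, Fosl1 (-0.72 ± 0.23) and Atf3 (-0.61 ± 0.30), both among the 7. In that fit Fosb was at -0.86 ± 0.51, Myc at -0.25 ± 0.13 and Jun at -0.21 ± 0.12. Without anti-TNF replicate 11 the count was 11.

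Genes of cell division and ribosome assembly also had negative differences, which were small. Of 25 cell cycle genes all had a negative difference (median -0.17, beside 59.1% of all genes below 0), and 8 had an unadjusted p under 0.05 (beside 3.41% of all genes), among them Rrm2, the regulated subunit of ribonucleotide reductase (15.4 ± 4.90 against 19.1 ± 3.97 FPKM, log2 -0.32 ± 0.12), and Ccne1, cyclin E1 (-0.28 ± 0.11). Of 22 ribosome biogenesis genes all had a negative difference (median -0.13, beside 59.1% of all genes), and 9 had an unadjusted p under 0.05 (beside 3.41%). Rrs1, a factor of the large ribosomal subunit, averaged 12.3 ± 1.84 against 14.6 ± 1.36 FPKM (-0.23 ± 0.06, limma adjusted p = 0.55), and Nolc1 differed by -0.15 ± 0.06. Members of such a list vary together across libraries, so the shared sign is not that of independent genes. Single libraries decided both counts. The cell cycle count was 5, 17, 2 and 5 without anti-TNF replicates 3, 4, 7 and 13 in turn, 4 without anti-IL-6 replicate 13, and 0 with index run as a covariate. The ribosome biogenesis count was 4, 2, 2 and 2 without anti-TNF replicates 3, 6, 7 and 13, and 4, 3, 5, 4 and 2 without anti-IL-6 replicates 8, 9, 11, 12 and 13. Within index run 2 all 25 cell cycle genes lay below 0, and within run 5 15 of them did. For ribosome biogenesis these numbers were 22 and 19 of 22.

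**Figure D4:**
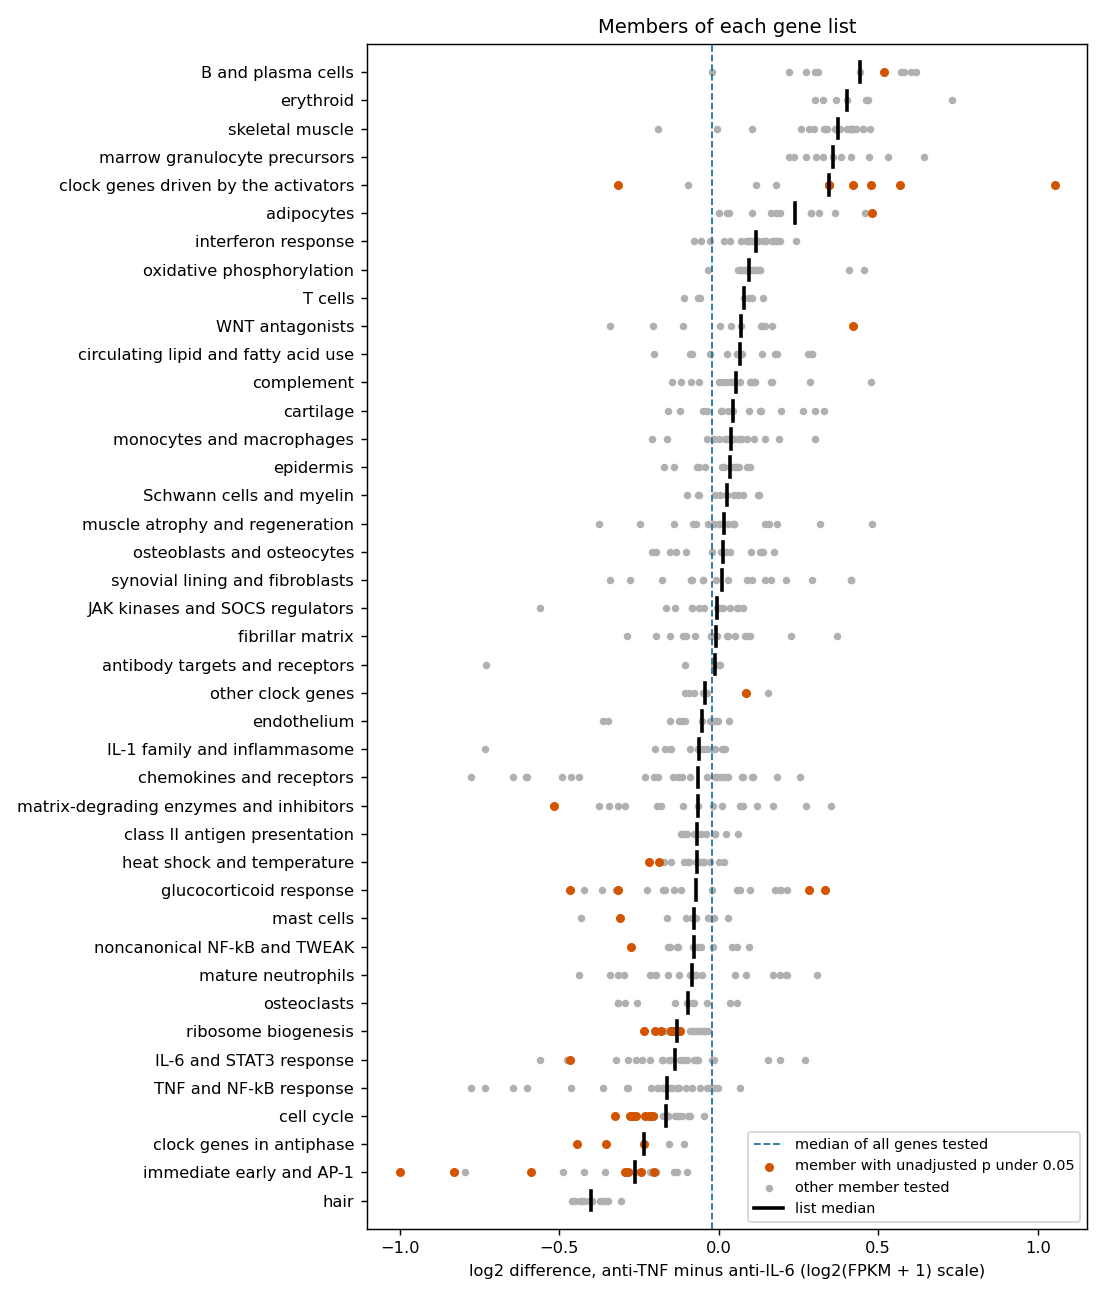
Log2 difference (anti-TNF minus anti-IL-6) of every tested member of the 41 gene lists, ordered by list median (black bars). Orange points mark an unadjusted p under 0.05. The dashed line is the median of all genes tested, -0.02. The 2 clock lists lie on opposite sides of it, at 0.35 and -0.23, and hair and immediate early genes have the lowest medians.

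The lists of genes downstream of TNF and IL-6 held 1 member at an unadjusted p under 0.05 (beside 4.72% of all genes). Of 26 genes of the TNF and NF-kB response 25 had a negative difference (median -0.16, beside 59.1% of all genes below 0), and 0 had an unadjusted p under 0.05. Those with the smallest p were Ccl20, a chemokine for cells bearing Ccr6 (3.55 ± 2.71 FPKM in anti-TNF paws and 6.95 ± 5.61 in anti-IL-6 paws, log2 -0.60 ± 0.32), and Rela, the p65 subunit of NF-kB (-0.13 ± 0.07). Of 24 genes of the IL-6 and STAT3 response 21 had a negative difference (median -0.14, beside the same 59.1%), with Mt2, a metallothionein, at an unadjusted p under 0.05 (733 ± 314 against 1038 ± 609 FPKM, -0.47 ± 0.20). Socs3, the feedback inhibitor of gp130 signalling, ran from 6.08 through 25.0 to 60.6 FPKM in anti-TNF paws, against 11.97, 29.2 and 128 FPKM in anti-IL-6 paws (-0.56 ± 0.31). Il1b differed by -0.73 ± 0.67, an interval too wide to place it on either side of 0. Within index run 2, Ccl20 differed by 0.20, Socs3 by 0.43 and Il1b by 1.45, without the negative sign of their pooled values. Within run 5, which holds 1 anti-IL-6 library, they differed by -1.91, -1.05 and -2.01. Rela (-0.06 and -0.14) and Mt2 (-0.16 and -0.34) were negative in both runs. Among JAK kinases and SOCS regulators the median was -0.0037 over 15 genes, and Socs4 had the smallest p (-0.17 ± 0.09).

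In the noncanonical NF-kB list, Tnfrsf12a, the receptor of the cytokine TWEAK, averaged 41.4 ± 4.87 FPKM in anti-TNF paws and 50.8 ± 9.93 in anti-IL-6 paws, and all 13 anti-TNF paws lay below the anti-IL-6 median (-0.28 ± 0.10, unadjusted p = 0.0054, limma adjusted p = 0.97). Its mean in isotype paws was 35.2 ± 6.41 FPKM, and it differed from isotype by 0.24 ± 0.10 in anti-TNF paws and by 0.51 ± 0.10 in anti-IL-6 paws (limma adjusted p = 0.0033 for anti-IL-6). Its mean in combination paws was 39.81 ± 7.05 FPKM. The other 12 members tested had an unadjusted p above 0.05. Of 17 matrix enzymes and inhibitors, Adamts1, a protease that cuts aggrecan and versican, had an unadjusted p under 0.05 (7.29 ± 4.06 against 11.9 ± 8.66 FPKM, -0.52 ± 0.22), while Adamts5, the main aggrecanase of mouse cartilage, differed by -0.19 ± 0.13. Frzb, a secreted WNT antagonist of cartilage, averaged 4.16 ± 1.49 against 2.89 ± 1.33 FPKM (0.42 ± 0.20), and was the 1 of 11 WNT antagonists with an unadjusted p under 0.05. Of all genes tested, 1.31% had a positive and 3.41% a negative difference at that level. In lists of this size 1 such member is not a result about the list.

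Among markers of immune cells, Ighm and Kit alone had an unadjusted p under 0.05 (beside 4.72% of all genes). In bulk paws, fewer cells of a type and less RNA per cell cannot be told apart. The mean log2 level of 20 mature neutrophil genes was 2.94 ± 0.96 in anti-TNF paws and 3.01 ± 1.02 in anti-IL-6 paws, and 0 members had an unadjusted p under 0.05. The 11 marrow granulocyte precursor genes tested all had a positive difference (median 0.36, beside 5922 of the 14490 genes tested), with 0 at that level. Chil3 (mean 1.975 against 0.7654 FPKM) and Ms4a3 (1.746 against 0.6986) passed the filter only through anti-TNF paws, which favoured that sign. A single anti-TNF paw stood far out, where Chil3 reached 14.3 FPKM against a group median of 0.761. Monocyte and macrophage genes had a median of 0.04, T cell genes 0.08 and class II genes -0.07. The median of 24 interferon genes was 0.12, with 21 positive (beside the same 5922 of 14490) and 0 at an unadjusted p under 0.05. Ighm, the constant region of IgM, averaged 31.3 ± 13.0 against 21.3 ± 8.43 FPKM (0.52 ± 0.24, limma unadjusted p = 0.034). A positive difference was held by 10 of 11 B and plasma cell genes, beside the same share of all genes. Kit, the stem cell factor receptor of mast cells and melanocytes, averaged 3.46 ± 0.90 against 4.46 ± 0.66 FPKM (-0.31 ± 0.09, unadjusted p = 0.0013, limma adjusted p = 0.72), whereas the other 9 mast cell genes had an unadjusted p above 0.05.

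Levels of tissue markers spread widely from paw to paw in both groups. The mean log2 level of skeletal muscle genes was 8.15 ± 1.25 in anti-TNF paws and 7.83 ± 1.23 in anti-IL-6 paws, and Ckm, muscle creatine kinase, ran from 148 through 650 to 4333 FPKM in anti-TNF paws, against 118, 754 and 2761 FPKM in anti-IL-6 paws. The level of epidermis genes was 8.76 ± 0.34 and 8.76 ± 0.65. All 14 hair genes had a negative difference (median -0.40, beside 59.1% of all genes below 0), with 0 at an unadjusted p under 0.05. Msx2 had the smallest p among them (-0.43 ± 0.27). All 14 adipocyte genes had a positive difference (median 0.24, beside 5922 of the 14490 genes tested), with 1 at an unadjusted p under 0.05 (beside 1.31% of all genes). This was Pck1, of glyceroneogenesis, at 3.24 ± 1.84 against 1.98 ± 1.03 FPKM (0.48 ± 0.20). All 7 erythroid genes tested also had a positive difference (median 0.40), with 0 at an unadjusted p under 0.05. Slc4a1 (mean 2.112 against 0.6701 FPKM) passed the filter only through anti-TNF paws, which favoured that sign. Haemoglobin genes have near-identical copies that reads could be split between. As in the lists above, a shared sign is not that of independent genes. Osteoclast, osteoblast, cartilage, fibrillar matrix and synovial fibroblast lists had medians between -0.10 and 0.05, with 0 members at an unadjusted p under 0.05. Lists of responses to glucocorticoids and heat gave mixed or small values. Among 20 glucocorticoid genes Klf9 (0.28 ± 0.13) and Zbtb16 (0.33 ± 0.15) had a positive difference at an unadjusted p under 0.05 (beside 1.31% of all genes). Mt2 and Per1 had a negative one at that level (beside 3.41%). Among 16 heat shock genes the chaperones Dnaja1 (-0.22 ± 0.09) and Hsp90aa1 (-0.19 ± 0.09) also had a negative one at that level (beside 3.41%).

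**Figure D5:**
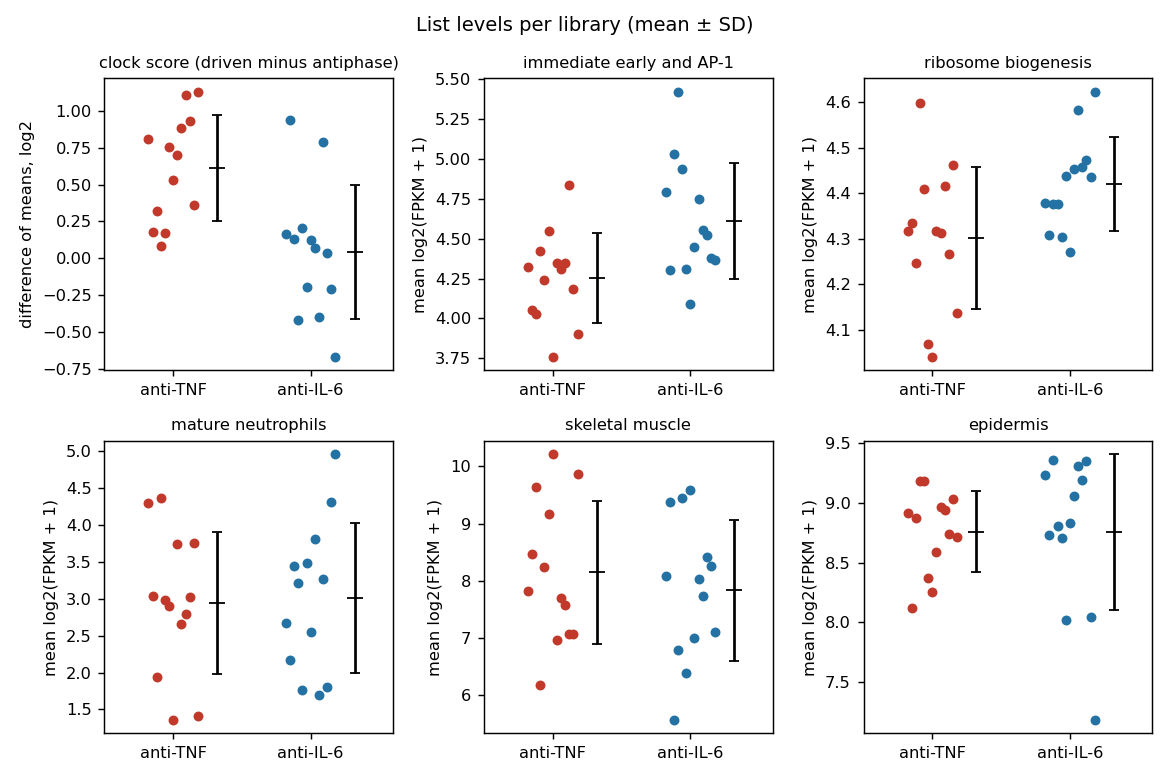
Mean log2(FPKM + 1) of list members per library (points) with mean ± SD (bars) in anti-TNF and anti-IL-6 paws (n = 13 each). The clock score is the difference between the mean of the driven genes and that of the antiphase genes, lists drawn up with these genes' results known. The groups overlap in each panel, and neutrophil levels averaged 2.94 in anti-TNF paws and 3.01 in anti-IL-6 paws.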

How the data were processed

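Deposited values were FPKM per gene and library, as made by the authors. No header names the unit, which was taken from the values. DESeq2 is named, with no role, in the submitters' processing notes. The aligner, the build and the use of strand are not stated. Per the labels' protocols, libraries were TruSeq stranded mRNA, sequenced paired-end on a NovaSeq system. Symbols were found for 52207 of 52244 Ensembl genes, and coordinates come from GENCODE M21 (GRCm38) for 51027 identifiers matching with version. All 56 libraries entered 1 limma 3.58.1 fit (R 4.3.3, trended and robust prior) on log2(FPKM + 1) with 5 group means (51 residual degrees of freedom). P-values are two-sided, adjusted by Benjamini-Hochberg over 14490 genes, with a threshold of 0.05. Fold changes on this scale understate those of low genes. Each library is a separate mouse.

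Depth is not stated per library. It was estimated from the steps between low values of single-exon genes of at least 400 bases. Of these values 77.0% to 83.9% were whole multiples within a tolerance of 0.05, so counts could not be rebuilt. Depth sets the precision of low genes. No pair of the 26 libraries held identical values (highest correlation 0.996), and 1187 hairpins in the table had 0 members above the filter.

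The members, the 41 gene lists and the rules were chosen with earlier results of these data known. Named genes were the 6 antibody targets and receptors, the 15 clock genes, the 2 members of each list with the smallest p, and, as no gene was called, the 10 genes with the smallest p. Others named at an unadjusted p under 0.05 were added after their values were seen. The 1 gene called in an alternative fit is not reported here. The test was tried on simulated data first. Alternatives were pseudocounts of 0.1 and 10, no filter, the 26 libraries alone, median-of-ratios scaling, index run, tissue or neutrophil scores as covariates, a plain prior, and leaving out libraries. Python 3.11.15 with pandas 2.3.3, scipy 1.17.1 and matplotlib 3.10.9 served for depth, permutations, motifs and figures.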

Additional observations from a re-analysis of the deposited data

How the results depend on the processing

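Of 37 alternative fits, 36 called 0 genes, with 494 to 1571 genes at an unadjusted p under 0.05. The exception had the neutrophil score as a covariate and called 1 gene, with a lower level in anti-TNF paws (limma adjusted p = 0.048). Smallest adjusted p ran from 0.073 to 0.71 over the 26 fits that left out 1 library, which all called 0 genes. It was 1.00 with the compared groups alone. Dbp (0.74 to 1.30), Tef (0.35 to 0.56) and Fosl1 (-1.08 to -0.27) kept their sign in all 37.

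Members at an unadjusted p under 0.05 numbered 6 to 6 (driven clock genes), 3 to 3 (antiphase), 5 to 11 (immediate early), 2 to 17 (cell cycle) and 2 to 13 (ribosome biogenesis) when each library was left out. With index run as a covariate antiphase had 5, immediate early 2, cell cycle 0 and ribosome biogenesis 3. Immediate early had 11 with muscle and epidermis scores. Ribosome biogenesis had 5 in the compared groups alone, 4 without mice 2 and 20 and 1 without the 2 least correlated libraries, where cell cycle had 0. That last alternative was chosen after seeing the data. The cause of these shifts was not tested.

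Gene values changed sign in 66 of 3622 comparisons, none of them called. With index run as a covariate these were Tnf -0.0167, Tnfrsf1a 0.0318, Tnfrsf1b 0.19, Il6ra -0.0521, Il6st 0.11, Per2 0.0135, Oscar 0.12, Tnfsf11 0.0626, Dmp1 0.18 and Sele 0.00115. Median-of-ratios scaling, which moved the median of all genes from -0.02 to 0.01, gave Tnfrsf1b 0.0151 and Il6st 0.0165. Tissue scores gave 0.13 and 0.0509, the neutrophil score 0.0433 and 0.00761, and leaving out the 2 least correlated libraries 0.25 and 0.0966, with Tnfrsf1a 0.00358, Cd86 0.0510 and H2-Ab1 0.0861. Tnf was -0.0229 with pseudocount 0.1 and -0.0163 without mice 2 and 20. Leaving out single libraries gave Tnf -0.10 to 0.0697, Tnfrsf1b -0.13 to 0.16, Il6ra -0.0613 to 0.0448, Il6st -0.0590 to 0.0562, Cd86 -0.17 to 0.00794 and H2-Ab1 -0.24 to 0.0201. Within index runs, 47 of 196 values had the other sign. No paired analysis was possible because the replicate numbers here were given in order of deposition and link no animals. At these depths genes under 1 FPKM were not tested.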

Other observations

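At the ends of the range of log2 differences, and chosen after their values were seen, lay Gm25679 and Krtap19-4. Gm25679 had the highest difference, with a mean of 38.0 FPKM in anti-TNF paws and 5.11 FPKM in anti-IL-6 paws (log2 2.02 ± 0.60, limma adjusted p = 0.72). Krtap19-4, a hair keratin-associated protein gene with close family members that reads could be split between, had the lowest, at 8.19 and 19.6 FPKM (-1.37 ± 0.64, limma adjusted p = 0.97).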
